A study of Mus musculus with 20 samples.

Results

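The long noncoding RNAs and small nucleolar RNA (snoRNA) host RNAs Malat1, Neat1, Gas5, Snhg1, Snhg3, Snhg6, Snhg8, Snhg12 and Meg3 were followed in mouse liver after IL-1β. They were taken as the rows of each count table whose gene symbol equals one of the 9 names. A row with reads was found for 7 of them, out of 37681 genes listed, and all 7 were among the 15578 genes tested. Snhg6 and Snhg8 had no row under these symbols or the synonyms RefSeq gives them, were not searched for under other names, and were not analysed here. Livers came from male mice, labelled C57/BL6 or C57/B6J and aged 12 weeks, taken 4 h after IL-1β at 20 µg/kg (mice ILB_9577, ILB_9578, ILB_9579, ILB_9582 and ILB_9583) or after saline, the group called untreated (UNT_9574, UNT_9575, UNT_9576, UNT_9580 and UNT_9584). All were wild-type mice, and a replicate is 1 animal, with 5 per group. RNA of each liver was made into 1 Illumina library (HiSeq) and 1 Ion Torrent library (Proton), both from poly-A selected RNA, and each platform's reads were aligned with GSNAP, STAR or STAR + Bowtie2, giving 6 tables of 10 libraries. Summed over genes, the re-sampled counts came to 10568530 to 12008799 per Illumina library and 12199528 to 16439683 per Ion Torrent library, and are called reads below. UNT_9584 stood apart, since the deviations of its 2 libraries from their group means correlated at r = 0.210 with GSNAP (across 9572 genes, which are not independent), against 0.665 or more in the other mice, and results are also given without it where they change.

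Long noncoding RNAs are long transcripts that do not encode a long protein. Many are spliced and polyadenylated like messenger RNA, whereas Malat1 and Neat1 are largely unspliced. A snoRNA host carries snoRNAs in its introns. These small RNAs are released when the introns are processed and guide the chemical modification of ribosomal RNA in the nucleolus, while the spliced exons that remain are often short-lived, since they hold no long reading frame and can be removed by nonsense-mediated decay. Gas5, Snhg1, Snhg3 and Snhg12 are hosts of this kind. Neat1 is the RNA scaffold of paraspeckles, nuclear bodies that retain some proteins and RNAs, Malat1 is an abundant RNA of nuclear speckles, where splicing factors are stored, and Meg3 is transcribed from the maternal copy of the imprinted DLK1-DIO3 cluster. IL-1β is a cytokine that turns on the acute phase response of the liver.

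The start regions of the 4 hosts are shown because these RNAs moved together in every table, as given below. Each runs from 60 bases before to 50 bases after the start in RefSeq on GRCm38.p6, and capitals mark a match to TATANA, searched on both strands. Gas5 has 2 starts in RefSeq and the downstream one is shown.
Gas5, chr1:161035106-161035215, plus strand: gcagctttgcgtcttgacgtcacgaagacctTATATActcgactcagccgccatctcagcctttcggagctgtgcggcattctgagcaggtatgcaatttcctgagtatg
Snhg1, chr19:8723427-8723536, plus strand: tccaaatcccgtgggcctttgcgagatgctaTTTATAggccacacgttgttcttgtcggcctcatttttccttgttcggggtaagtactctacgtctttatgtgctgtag
Snhg12, chr4:132308618-132308727, plus strand: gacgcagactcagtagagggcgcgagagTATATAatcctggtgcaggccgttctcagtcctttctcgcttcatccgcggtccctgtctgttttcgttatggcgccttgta
Snhg3, chr4:132353637-132353746, minus strand: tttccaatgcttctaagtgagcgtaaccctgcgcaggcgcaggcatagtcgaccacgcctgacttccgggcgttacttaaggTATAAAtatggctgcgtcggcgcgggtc

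The match to TATANA began 29 bases before the start shown for Gas5 and for Snhg1 and 32 bases before it in Snhg12. The upstream start of Gas5 held no match. In Snhg3 it lay at position 23 after the start. Meg3 held matches at 29, 27 and 25 bases before 1 of its starts and Malat1 held none, so that 5 of the 8 starts listed for the 6 genes with an entry had a match, against 9.24% of 32851 promoters over the same 110 bases. Runs of at least 6 C or T within 20 bases of the start, a feature of genes whose translation follows growth signals, were found at 3 of the 8 starts (in Gas5, Snhg1 and Snhg12), close to the 38.1% of all promoters. Over the whole 300-base window, on both strands, an NF-κB type motif, TTCNNNGAA (STAT type) and CACGTG (E-box) were found at 0 of the 8 starts, against 0.411%, 8.30% and 7.15% of promoters. TTNNGNAA (C/EBP type) was found at 2 of the 8 (in Meg3 and Snhg3), against 40.7%. Letters of a motif in a window describe the sequence only.

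In the Illumina data aligned with GSNAP, 5 of the 7 RNAs rose with IL-1β (Snhg3, Neat1, Snhg1, Snhg12 and Gas5) and none fell, by edgeR's quasi-likelihood test at a Benjamini-Hochberg adjusted p below 0.05. Over all genes tested there, 23.7% rose and 23.9% fell. The median log2 fold change was 0.65 over the 7 RNAs and 0 over all genes tested. In the Ion Torrent data with GSNAP, the 4 snoRNA hosts rose and none of the 7 fell, where 22.5% of all genes rose and 23.9% fell, and the median of the 7 was 0.59. With STAR, 5 rose on Illumina (22.7% of all genes) and 4 on Ion Torrent (20.3%). With STAR + Bowtie2 these numbers were again 5 (22.9%) and 4 (22.8%). The RNAs that rose were the same in the 3 tables of a platform, and the platforms differed in the call of Neat1 alone, whose call was not stable on either. On Illumina with GSNAP it was lost, leaving 4 RNAs, in 7 of the 10 fits without 1 mouse (UNT_9584 among them), without TMM scaling, with DESeq2, with a filter of 20 reads and with a Mann-Whitney test (adjusted p = 0.0754, 0.0741, 0.0508 and 0.791 for the last 4). On Ion Torrent it was gained with no filter on low counts with GSNAP (log2 1.06, adjusted p = 0.0497) and STAR (1.11, 0.0444).

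**Figure D1:**
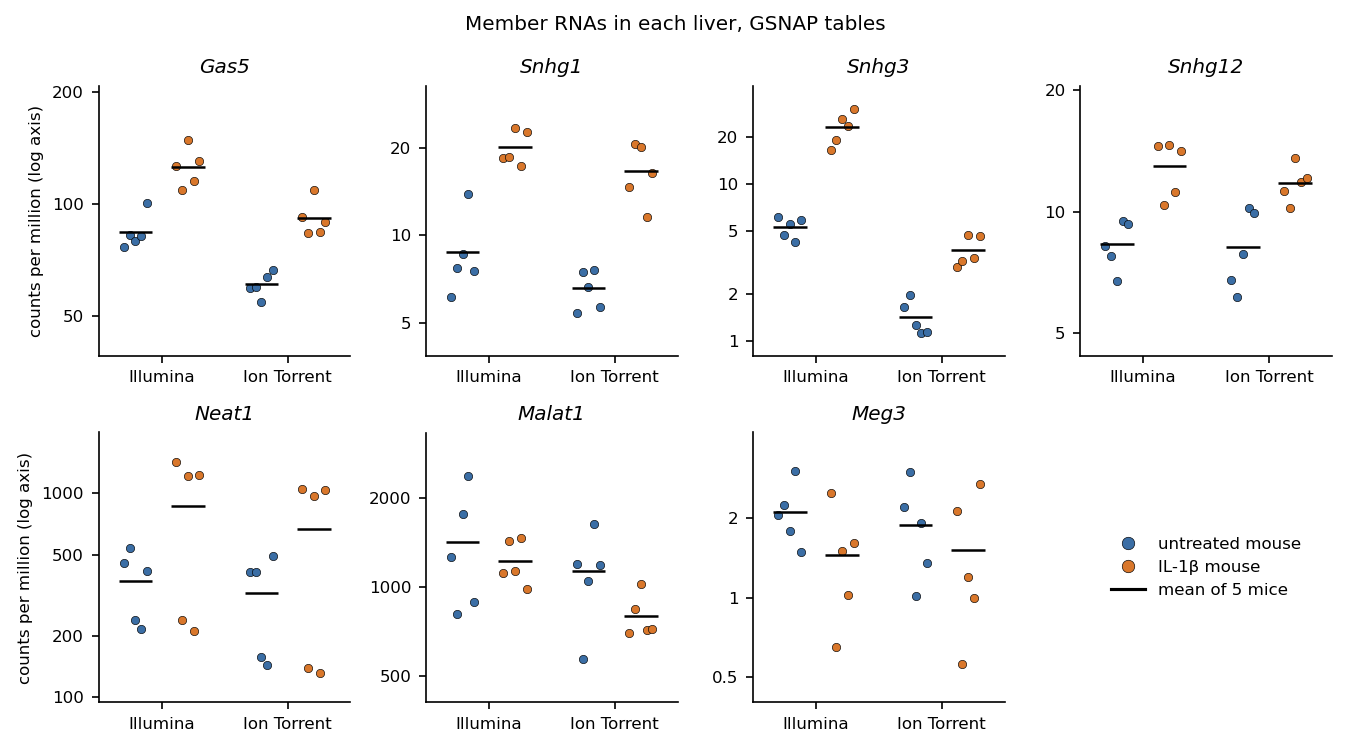
TMM-normalized CPM (log axis) of the 7 RNAs in each liver for the GSNAP tables of both platforms, with untreated mice in blue, IL-1β mice in orange and the mean of 5 mice as a black line. The 5 IL-1β mice lie above the 5 untreated mice for Gas5, Snhg1, Snhg3 and Snhg12 on both platforms, and the groups overlap for Neat1, Malat1 and Meg3.

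Snhg3 changed most on Illumina. It hosts the H/ACA snoRNAs Snora73a and Snora73b (the U17 family, which takes part in the cleavage of precursor ribosomal RNA), and lies at chr4:131903929-131909601 on the minus strand of NCBIM37 (mm9), the build used by the authors. Its level on Illumina with GSNAP, in CPM (counts scaled to library size with TMM factors), was 16.4, 19.02, 25.8, 23.3 and 30.0 in mice ILB_9577, ILB_9578, ILB_9579, ILB_9582 and ILB_9583. The untreated mice, in the order UNT_9574, UNT_9575, UNT_9576, UNT_9580 and UNT_9584, gave 6.18, 4.72, 5.59, 4.27 and 5.88. The lowest treated liver was far above the highest untreated one, and the mice were given in these orders in all sentences that follow. The fold change was 4.29 (approximate 95% interval 3.39 to 5.43, log2 2.10 ± 0.17 SE, n = 5 mice per group, adjusted p = 2.82e-07 by edgeR).

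On Ion Torrent, Snhg3 measured 2.96, 3.24, 4.74, 3.36 and 4.65 CPM in the IL-1β mice. It measured 1.65, 1.97, 1.27, 1.13 and 1.15 in the untreated mice. The groups were again apart, at lower counts of 43 to 67 reads against 17 to 31. The fold change was 2.63 (1.93 to 3.59; log2 1.40 ± 0.23 SE, adjusted p = 0.000132 by edgeR). Over the 3 aligners, the log2 fold change was 2.06 to 2.20 on Illumina and 1.31 to 1.40 on Ion Torrent.

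Snhg3 shares exon sequence and strand with Rcc1, which encodes the nucleotide exchange factor of the small GTPase Ran, so that reads in the shared exons could be counted for either gene. Rcc1 had 102 to 141 Illumina reads in the IL-1β mice and 65 to 108 in the untreated mice, with a log2 change of 0.73 ± 0.15 (adjusted p = 0.00101, edgeR). On Ion Torrent it also changed by 0.73 ± 0.16 (adjusted p = 0.0014, edgeR). How reads were split between these genes was not stated in the sources used here.

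Gas5 (growth arrest specific 5; chr1:162964553-162968670, plus strand, NCBIM37) hosts box C/D snoRNAs, which guide methylation of ribosomal RNA. It was the most abundant of the 4 hosts, with Illumina levels of 127, 109, 148, 115 and 130.2 CPM in the IL-1β mice. In the untreated mice it measured 76.7, 82.6, 79.3, 82.0 and 101. Every treated liver was above every untreated one, with UNT_9584 the closest. The change was 1.49-fold (1.29 to 1.73; log2 0.58 ± 0.11 SE, adjusted p = 0.000417, edgeR). Ion Torrent levels were 83.3 to 109 (median 89.4) with IL-1β and 54.6 to 66.4 (median 59.7) without, again apart, and the change was 1.51-fold (log2 0.59 ± 0.10, adjusted p = 0.000175, edgeR). Its first exon overlaps the start of Zbtb37, a zinc finger gene on the opposite strand, for which the log2 difference was -0.18 on Illumina and -0.04 on Ion Torrent, neither past the threshold.

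Snhg1 (chr19:8797986-8800932, plus strand), also a host of box C/D snoRNAs, lies beside Slc3a2, which encodes a subunit of amino acid transporters. Its Illumina levels were 18.4, 18.7, 23.3, 17.4 and 22.7 CPM with IL-1β. Without it they were 6.10, 7.68, 8.59, 13.9 and 7.55. The groups did not overlap, and UNT_9580 was the highest of the untreated mice. The change was 2.29-fold (log2 1.20 ± 0.19 SE, adjusted p = 0.000112, edgeR). On Ion Torrent, levels of 11.6 to 20.6 with IL-1β (median 16.4) and of 5.37 to 7.61 without it (median 6.64) gave a 2.54-fold change (log2 1.34 ± 0.17, adjusted p = 1.32e-05, edgeR). Slc3a2 rose as well, by 0.91 on Illumina and 0.67 on Ion Torrent (log2).

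Snhg12 (chr4:131864593-131866939, plus strand) hosts H/ACA and box C/D snoRNAs and is near Snhg3 on the chromosome. Its Illumina levels were 14.5, 10.4, 14.6, 11.2 and 14.2 CPM in the IL-1β mice. They were 8.24, 7.76, 6.73, 9.46 and 9.31 in the untreated mice. The groups were narrowly apart with GSNAP and STAR and overlapped on Illumina with STAR + Bowtie2. The change was 1.56-fold (log2 0.65 ± 0.14 SE, adjusted p = 0.00179, edgeR). Ion Torrent levels of 10.2 to 13.6 (median 11.9) and 6.16 to 10.2 (median 7.85) gave 1.44-fold (log2 0.53 ± 0.16, adjusted p = 0.0124, edgeR). The call was not kept by a Mann-Whitney test on the deposited counts (adjusted p = 0.0710), which are not TMM-scaled and overlap between the groups (145 to 192 and 97 to 154 reads). Trnau1ap, which lies beside it and encodes a factor of selenocysteine tRNA, did not pass the threshold (log2 0.21 and 0.24).

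Groups that did not overlap were thus found for 4 of the 7 RNAs with GSNAP on both platforms, all 4 higher with IL-1β. Over all genes tested, 35.2% on Illumina and 33.9% on Ion Torrent had groups apart in either direction. In all 6 tables Gas5, Snhg1, Snhg3 and Snhg12 were called higher, with log2 changes of 0.57 to 0.72 for Gas5, 1.20 to 1.36 for Snhg1 and 0.52 to 0.65 for Snhg12. In a bulk liver sample, fewer cells of a type and less RNA per cell cannot be told apart, and this holds for each level given here.

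**Figure D2:**
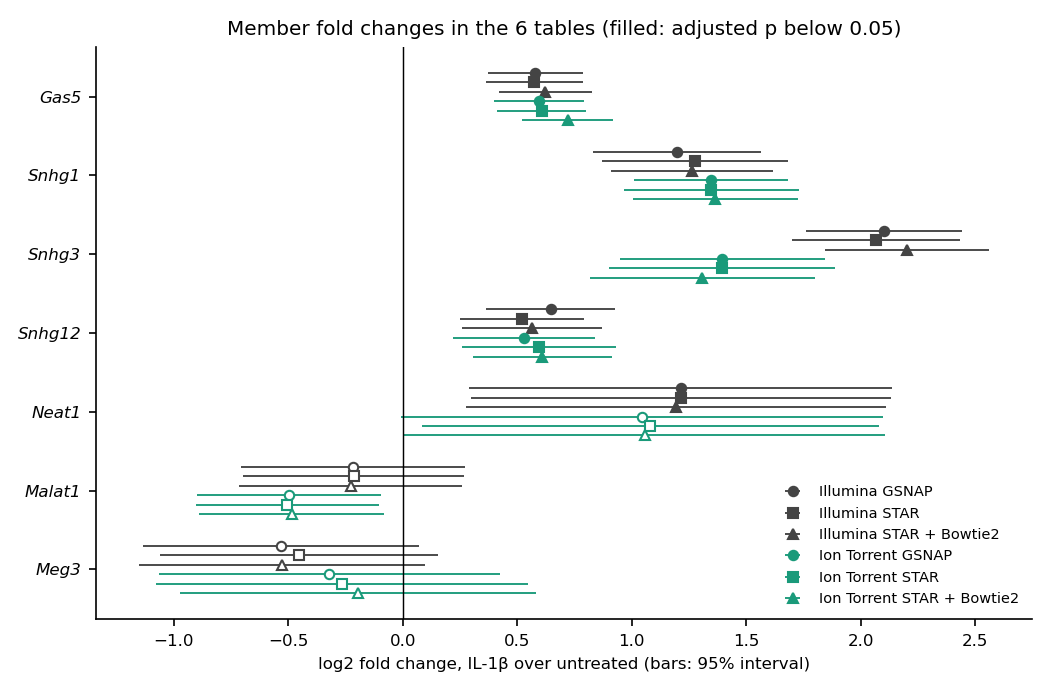
Log2 fold change of IL-1β over untreated mice for each RNA in the 6 tables, with Illumina in grey and Ion Torrent in green. Bars are approximate 95% intervals (normal quantile times the SE), and filled markers have an adjusted p below 0.05. Snhg3 is the RNA whose estimates (2.06 to 2.20 against 1.31 to 1.40) stand furthest apart between platforms.

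Neat1 (chr19:5824708-5845478, minus strand) differed widely among the mice of each group. Its Illumina levels were 1422, 239, 1216, 210.0 and 1231 CPM in the IL-1β mice. The untreated mice gave 454, 537, 239, 216 and 417. ILB_9577, ILB_9579 and ILB_9583 were above all untreated mice, whereas ILB_9578 and ILB_9582 were level with the lowest of them. Among the untreated mice UNT_9576 and UNT_9580 were likewise a low pair, on both platforms. Group means were 864 ± 589 and 373 ± 140 (SD, n = 5), and the fold change was 2.32 (1.22 to 4.40; log2 1.21 ± 0.47 SE, adjusted p = 0.0465, edgeR). Of the 10 fits without 1 mouse, 7 lost this call (those without ILB_9577, ILB_9579, ILB_9583, UNT_9574, UNT_9576, UNT_9580 or UNT_9584), with log2 changes of 0.96 to 1.44 and adjusted p from 0.0097 to 0.119 over the 10.

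Ion Torrent libraries of the same livers placed the same mice high and low. Neat1 measured 1046, 139, 974, 132 and 1039.8 CPM in the IL-1β mice. It measured 412, 413, 157, 143 and 490.3 in the untreated mice. The same 3 treated mice were above all untreated mice in each of the 6 tables, and the other two were below every untreated mouse on Ion Torrent with GSNAP. The fold change was 2.06 (0.995 to 4.27; log2 1.04 ± 0.54 SE) and did not pass the threshold (adjusted p = 0.125, edgeR), though it did without ILB_9578 (log2 1.31, adjusted p = 0.0374) or ILB_9582 (log2 1.32, adjusted p = 0.0376), and was 1.24 without UNT_9584 (adjusted p = 0.101).

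Few genes averaging 1000 reads or more varied as much as Neat1 in either group. The highest IL-1β mouse had 6.77 times the Neat1 level of the lowest on Illumina, and 1 of the 1616 genes averaging 1000 reads or more had a larger ratio, the median gene being at 1.30. On Ion Torrent the ratio was 7.94, with 2 of 2040 genes above it and a median of 1.38. Among untreated mice the ratio was 2.49 on Illumina, with 64 of the 1616 genes (3.96%) above it and a median of 1.38, and 3.43 on Ion Torrent, with 22 of 2040 (1.08%) above it and a median of 1.28. Whether the spread differed between the groups was not tested. Since both platforms read the same RNA, they repeat the measurement and not the animals.

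Other transcripts were set beside these levels. Saa1, an acute phase protein of the liver, was at 7507, 9655, 7248, 7502 and 8545 CPM in the IL-1β mice on Illumina, and at 31.3 to 98.4 in the untreated mice. The summed level of the 8 neutrophil markers tested was 74.8, 119, 55.5, 104 and 72.0 in the IL-1β mice and 2.59 to 5.47 in the untreated mice, so that all 5 treated mice were high in both and the 2 treated mice low in Neat1 had the highest neutrophil sums. Whether these cells have a part in the Neat1 levels was not tested.

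Malat1 (chr19:5795690-5802671, minus strand), the neighbour of Neat1, showed the reverse order of spread. Its Illumina levels were 1117, 1432, 1131, 1463 and 981.5 CPM in the IL-1β mice. They were 1266, 809.5, 1768, 2381 and 891 in the untreated mice. The treated values lay within the untreated range, which reached from UNT_9575 to UNT_9580. The log2 difference was -0.22 ± 0.25 (adjusted p = 0.512, edgeR), and it was 0.05 without UNT_9580. The highest over the lowest mouse was 1.49 with IL-1β and 2.94 without, with 390 and 35 of the 1616 genes above these ratios.

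On Ion Torrent, Malat1 was at 699.5, 842.5, 1022, 715 and 722 CPM in the IL-1β mice. The untreated mice had 1200.0, 569.9, 1052, 1638 and 1190.0. Treated values were again inside the untreated range. The log2 difference was -0.50 ± 0.21 (adjusted p = 0.0591, edgeR), and it passed the threshold without UNT_9575 (-0.66, adjusted p = 0.00239) or without ILB_9579 (-0.61, adjusted p = 0.0372). Without UNT_9584 it was -0.48 (adjusted p = 0.0996, edgeR).

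Reads of Neat1 per read of Malat1 were compared because this ratio needs no scaling between libraries. On Illumina with GSNAP the IL-1β mice had 1.27, 0.167, 1.07, 0.144 and 1.25 Neat1 reads per Malat1 read. The untreated mice had 0.359, 0.664, 0.135, 0.0906 and 0.468. The same 3 treated mice were above all others, and the remaining 2 were within the untreated range. The mean log2 ratio was -0.92 ± 1.62 (SD) with IL-1β and -1.90 ± 1.22 without, a difference of 0.98 (two-sided exact permutation test, p = 0.310, n = 5 per group). On Ion Torrent the difference was 1.11 (p = 0.246, same exact permutation test), where 5 mice against 5 allow no p below 0.00794.

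**Figure D3:**
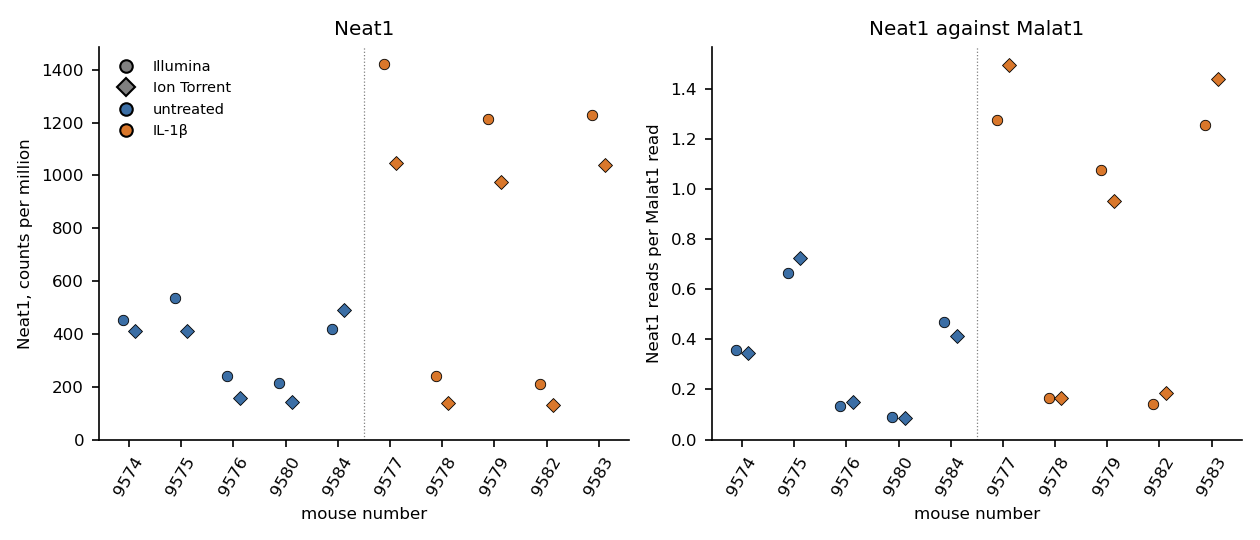
Neat1 in CPM (left) and Neat1 reads per Malat1 read (right) for each of the 10 mice, with Illumina as circles, Ion Torrent as diamonds, untreated mice in blue and IL-1β mice in orange. ILB_9577, ILB_9579 and ILB_9583 lie at 974 to 1422 CPM on the 2 platforms, whereas ILB_9578 and ILB_9582 lie at 132 to 239, as do the untreated UNT_9576 and UNT_9580 (143 to 239).

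Meg3 (chr12:110779211-110809936, plus strand) was scarce in adult liver. It had 28, 7, 16, 11 and 17 Illumina reads in the IL-1β mice and 26, 28, 22, 36 and 17 in the untreated mice. On Ion Torrent it had 31, 8, 17, 14 and 36 reads against 36, 47, 16, 29 and 20. The groups overlapped on both platforms, with ILB_9578 the lowest library on each. The log2 difference was -0.53 ± 0.31 (adjusted p = 0.173, edgeR) on Illumina and -0.32 ± 0.38 (adjusted p = 0.520, edgeR) on Ion Torrent. Without ILB_9577, the Illumina difference passed the threshold (-0.82, adjusted p = 0.0365). Of the other genes of the DLK1-DIO3 cluster, Rian and Rtl1 were tested and neither passed. Summed over the libraries, Rian had 79 Illumina and 73 Ion Torrent reads. Rtl1 had 1 and 8, too few to show a change.

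Levels between genes were compared per kilobase of annotated exon, on the scale of CPM per kb. The annotated exons of Snhg1 (2947 bases) filled its whole span and those of Gas5 filled 3760 of 4118 bases. Those of Snhg3 filled 986 of 5673. The order of the hosts depends on these lengths. In CPM the untreated Illumina median of Snhg1 (7.68) was above that of Snhg3 (5.59). In untreated mice on Illumina the medians were 181 for Malat1, 21.8 for Gas5, 20.1 for Neat1, 5.67 for Snhg3, 5.07 for Snhg12, 2.61 for Snhg1 and 0.114 for Meg3. The ranges of Gas5 and Neat1 overlapped in this order, as did those of Snhg3 and Snhg12. Snhg1 overlapped Snhg12 and Snhg3 through UNT_9580 alone, where it was below Snhg12, as in each of the 5 mice, and above Snhg3, while Malat1 stood above and Meg3 below all others. With IL-1β the medians were 162 for Malat1, 58.5 for Neat1, 33.7 for Gas5, 23.7 for Snhg3, 8.71 for Snhg12, 6.33 for Snhg1 and 0.0828 for Meg3. Snhg3 then stood clear of Snhg12 (16.6 to 30.5 against 6.39 to 8.98) and overlapped Gas5 (29.0 to 39.4). The range of Neat1 (10.1 to 68.5) held those of Gas5 and Snhg3, and in ILB_9578 and ILB_9582 Neat1 was below both.

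On Ion Torrent this order differed for Snhg3 in both groups and for Gas5 and Neat1 in the untreated mice. There the median of Neat1 (19.8) was above that of Gas5 (15.9), and their ranges overlapped as on Illumina. For Snhg3 the median level per kb was 1.28 in untreated and 3.41 in IL-1β mice, below Snhg12 (4.83 and 7.30) and Snhg1 (2.25 and 5.55). Illumina CPM of Snhg3 were 5.28 times those of Ion Torrent in the same mouse (median of 10 mice, 2.40 to 6.95). For the other 6 RNAs this median ratio was 1.05 to 1.44, though the ratio in UNT_9584 was 0.749 for Malat1 and 0.850 for Neat1, against values above 1 for both in the other 9 mice, and over 11388 genes it was 1.04, with 0.572 to 1.84 spanning the middle 90 of 100 genes. The tables were normalized separately, so these ratios are descriptions.

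Whether the response to IL-1β differed between platforms was tested by a platform-by-treatment term fitted to both platforms' libraries (20 per aligner) and blocked on the mouse. None of the 7 RNAs passed with GSNAP, where 0.0642% of all genes did, with STAR (0.00642%) or with STAR + Bowtie2 (0.077%). The term for Snhg3 (Ion Torrent minus Illumina) was -0.71 ± 0.20 on the log2 scale with GSNAP, with an unadjusted p of 0.00204 and an adjusted p of 0.514 by edgeR. It was -0.65 with STAR and -0.90 with STAR + Bowtie2 (adjusted p = 0.653 and 0.431, edgeR). At an unadjusted p under 0.05, 1 of the 7 RNAs passed with each aligner, and it was Snhg3 each time, beside 7.8% (GSNAP), 7% (STAR) and 7.77% (STAR + Bowtie2 tables) of all genes. With GSNAP the terms were -0.32 for Malat1, -0.20 for Neat1, 0.21 for Meg3, 0.11 for Snhg1 and -0.11 for Snhg12.

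Few reads were assigned to the snoRNAs themselves. Within the 4 hosts the annotation places 23 snoRNAs, of which 9 are in Gas5, 8 in Snhg1, 4 in Snhg12 and 2 in Snhg3, and 20 of the 23 had no read in any table. Those without reads all overlap an annotated exon of their host, where reads could be counted for the host. Whether their 0 counts reflect absent reads or this assignment was not tested. Snora73b of Snhg3 had 19 to 32 Illumina reads in the IL-1β mice and 1 to 8 in the untreated mice, which do not overlap (log2 2.05 ± 0.32, adjusted p = 0.00012, edgeR). It lies outside the Snhg3 exons, and had 0 reads in each Ion Torrent table. Snora73a, which overlaps an annotated Snhg3 exon, had 7 to 16 against 0 to 4 on Illumina (log2 2.15 ± 0.47, adjusted p = 0.00169, edgeR). On Ion Torrent it had 0 to 3 reads against 0, which did not pass the threshold (adjusted p = 0.12, edgeR). Poly-A selection leaves out mature snoRNAs, which carry no poly-A tail, and whether these reads came from the snoRNAs or from spliced or unspliced Snhg3 was not tested.

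Snora73b is printed because it is the snoRNA with the most reads, with its ACA box in capitals at bases 200 to 202. Snord47, which lies within Gas5, overlaps an annotated Gas5 exon of at least 1 transcript model and had no reads, is printed as an example of the other class, with its C box at bases 11 to 17 and its D box at bases 70 to 73 in capitals. Both are read from the NCBIM37 genome.
Snora73b, chr4:131908237-131908441, minus strand: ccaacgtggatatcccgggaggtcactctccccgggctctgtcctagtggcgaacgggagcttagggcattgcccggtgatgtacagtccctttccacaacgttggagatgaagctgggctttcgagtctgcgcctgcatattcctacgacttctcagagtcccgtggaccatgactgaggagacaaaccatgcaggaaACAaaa
Snord47, chr1:162968213-162968289, plus strand: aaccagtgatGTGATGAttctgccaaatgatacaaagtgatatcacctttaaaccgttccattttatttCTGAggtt

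Proteins that bind and assemble snoRNAs were examined beside the hosts. Of 23 snoRNP proteins and assembly factors, 17 rose and none fell on Illumina, and 18 rose and 1 fell on Ion Torrent, with 17 higher on both and median log2 changes of 0.63 and 0.58. Over all genes tested, 23.7% rose and 23.9% fell on Illumina, and 22.5% and 23.9% on Ion Torrent, and the list counts that follow stand beside these shares. The largest change on Illumina was that of Nop58, a core protein of box C/D particles (2.44 ± 0.15 on Illumina and 2.47 ± 0.14 on Ion Torrent, log2 ± SE). Next on Illumina were Gar1, a core protein of H/ACA particles (1.52 and 1.54), Nolc1, a nucleolar chaperone of these particles (1.32 and 1.26), and Rrp9, which binds the U3 snoRNA (1.23 and 0.97). Of 54 protein-coding genes that host snoRNAs, 26 rose and 2 fell on each platform, 25 of them higher on both. Among these were Nop58 itself, Ppan, a ribosome assembly factor (1.50 and 1.24), Rpl12, a ribosomal protein whose reads may be shared with processed copies (1.10 and 0.45), and Wdr43, a factor of small subunit assembly (1.02 and 1.22). The median was 0.31 on Illumina and 0.25 on Ion Torrent.

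Other noncoding RNAs changed in both directions. Of 42 further host and long noncoding RNAs 21 could be tested, and 3 rose and 5 fell on Illumina and 4 rose and 6 fell on Ion Torrent, near the shares over all genes and so no result about these RNAs as a list, with medians of -0.11 on Illumina and 0.06 on Ion Torrent. Snhg15 (listed as Gm11974) rose by 1.31 ± 0.30 on Illumina and 1.26 ± 0.26 on Ion Torrent (log2 ± SE; adjusted p = 0.00247 and 0.00109, edgeR). Snhg11 (-1.38 and -1.31), Snhg20 (listed as 2810008D09Rik, -0.97 and -0.95) and Firre (listed as 6720401G13Rik, -0.88 and -0.81) fell on both platforms.

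Factors of nonsense-mediated decay, which degrades many spliced host RNAs, were mostly higher or not called. Of 22, 10 rose and 3 fell on Illumina and 12 rose and 1 fell on Ion Torrent, with a median of 0.40 on each, where 23.7% and 22.5% of all genes rose and 23.9% fell on both platforms. Smg5, which recruits phosphatase and decay enzymes to Upf1, changed by 0.82 and 0.58, Magoh and Eif4a3 of the exon junction complex by 0.74 and 0.98 and by 0.72 and 0.72, and Upf2 by 0.60 and 0.71.

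Partner proteins of Neat1 and Malat1 were taken from paraspeckles and nuclear speckles. Of 31 paraspeckle proteins, 14 rose and 4 fell on Illumina and 15 rose and 4 fell on Ion Torrent, with medians of 0.21 and 0.25, beside the same shares of all genes (23.7% and 22.5% higher, 23.9% lower). Pspc1 (1.97 ± 0.14 and 2.12 ± 0.17) and Sfpq (1.11 and 1.13), RNA-binding proteins of the paraspeckle core, rose. Nono, also of the core, did not pass the threshold (-0.09 and -0.16, adjusted p = 0.441 and 0.116, edgeR). The zinc finger protein Zc3h6 (-2.01 and -2.58) and the cold-inducible RNA-binding protein Cirbp (-1.38 and -1.15) fell. Of 25 nuclear speckle and SR proteins, 12 rose and 2 fell on Illumina and 15 rose and 1 fell on Ion Torrent, with medians of 0.30 and 0.29. Srsf7 (0.86 and 1.12), Rnps1 (0.70 and 0.74), Tra2a (0.70 and 0.89) and Tra2b (0.67 and 0.81), all regulators of splicing, were the largest on Illumina.

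**Figure D4:**
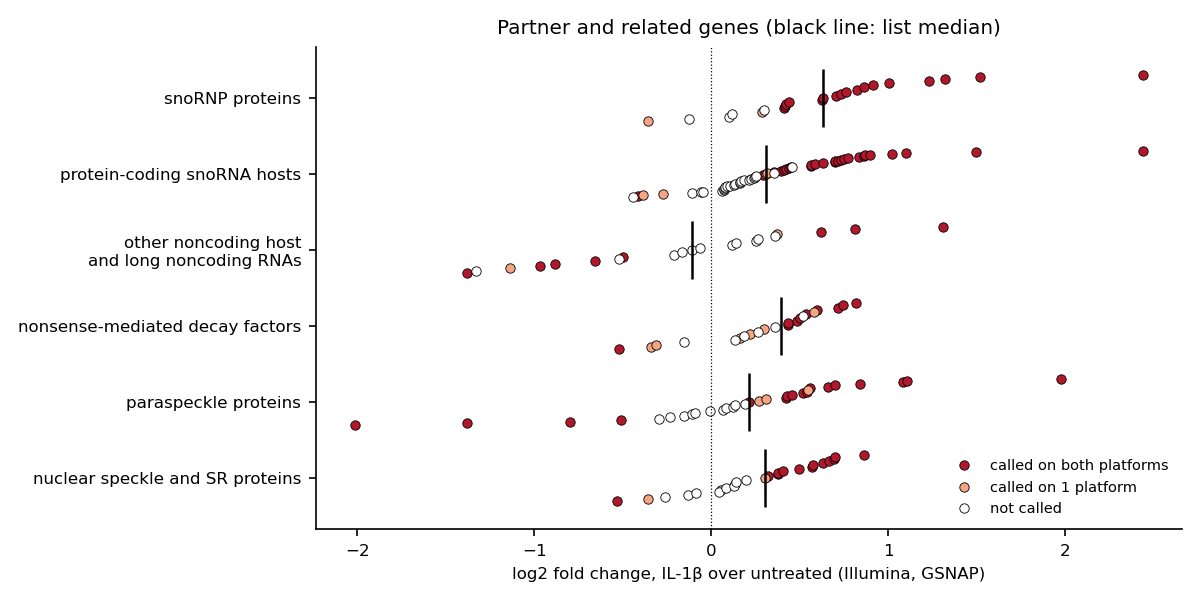
Log2 fold change of IL-1β over untreated mice on Illumina with GSNAP for each tested gene of 6 lists, with dark red for a call on both platforms, light red for a call on 1 and white for none, and the list median as a black line. The medians are 0.63 for snoRNP proteins, 0.31 for protein-coding snoRNA hosts, -0.11 for other noncoding RNAs, 0.40 for decay factors, 0.21 for paraspeckle proteins and 0.30 for nuclear speckle proteins.

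On Illumina with GSNAP, the summed markers of hepatocytes, neutrophils and lymphocytes were apart between the groups. Those of Kupffer, sinusoidal endothelial and stellate cells overlapped. Over all genes tested there, 23.7% rose and 23.9% fell. All 7 acute phase genes listed as a check rose, Lcn2 by 9.79 and Saa1 by 6.95 on the log2 scale on Illumina. The summed hepatocyte markers fell from 107649 to 130136 CPM in untreated mice to 84063 to 95747 in IL-1β mice (1 of 10 rose and 6 fell), and hepatocyte markers were the most abundant of the cell lists in both groups. Neutrophil markers went from 2.59 to 5.47 up to 55.5 to 119 (8 of 8 tested rose, and Ly6g, Camp, Elane and Mpo were below the filter). With STAR + Bowtie2 the Illumina neutrophil sums were 28.8 to 32.03 in untreated and 86.1 to 147 in IL-1β mice, higher than with GSNAP in both groups and with a smaller ratio between them. Kupffer cell markers (175 to 322 and 115 to 264, 1 of 11 rose and 4 fell), sinusoidal endothelial markers (206 to 323 and 184 to 267, 3 of 10 rose and 4 fell), stellate cell markers (283 to 378 and 199.8 to 337, 1 of 10 rose and 3 fell) and lymphocyte markers (3.01 to 5.70 and 1.14 to 2.43, 4 of 7 fell) completed the lists. The part of these cells in the host and Neat1 levels was not tested.

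Genes whose values were closest to each RNA over the 10 Illumina libraries were found by the mean absolute difference of centred log2 levels, among 9737 genes, as a description. Most of them were not among the closest genes on Ion Torrent, where their ranks of 9737 follow. For Gas5 they were Ccdc76 (0.0603, rank 1211) and Med1 (0.0635, rank 1). For Snhg1 they were Pla2g12b (0.155, rank 148) and Pelo (0.156, rank 318), and for Snhg3 they were Aim1 (0.115, rank 1412) and Pnp2 (0.155, rank 4292). For Snhg12 they were Tbpl1 (0.0731, rank 1090) and Spint2 (0.101, rank 211), with Gas5 at 0.112 in 6th place (rank 54). For Neat1 the closest gene, Slc1a5, was 0.626 away (rank 2). This distance is not scaled to the spread of an RNA, and its median over all genes compared was 0.946 for Neat1 and 0.411 for Gas5. It therefore does not tell how closely Neat1 is tracked relative to the hosts. Malat1 was nearest to 5031425E22Rik (0.193, rank 1977) and Zfp655 (0.213, rank 52), and Meg3 to Fam98c (0.152, rank 11) and Trp53i11 (0.157, rank 16).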

How the data were processed

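The authors deposited whole-number read counts for each gene in 6 tables, from 2 platforms and 3 aligners. The authors aligned reads to mm9 with STAR 2.5.1b, GSNAP or STAR with Bowtie2 2.2.9, and PORT v0.8.1-beta removed rRNA and mitochondrial reads, brought libraries within each table down to the smallest by re-sampling and counted on Ensembl v67. PORT's use of strand and the counting unit (read pairs or reads) were not given in the sources used here. A gene was tested if 5 of the 10 libraries of any table held 5 or more reads each, 15578 in all. All 60 columns were used.

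Each table was fitted on its own with edgeR 4.0.16 (quasi-likelihood test after TMM scaling, R 4.3.3), with Benjamini-Hochberg adjustment over all genes tested. CPM values are TMM-scaled, and an error after ± is the standard error of a log2 fold change or the SD of a level. The platform-by-treatment fit used the mouse as a block, since the labels give both libraries of a mouse the same number. As a check of this pairing, deviations from the group means correlated between the libraries of a mouse at r = 0.210 to 0.804 with GSNAP (across 9572 genes, which are not independent), and 9 of 10 mice matched themselves best. The Neat1 to Malat1 ratio used an added 1 read and exact permutation tests (scipy 1.17.1). Other tools were DESeq2 1.42.0, limma 3.58.1, Python 3.11.15, numpy 2.4.6, pandas 2.3.3 and matplotlib 3.10.9. Alternatives were no TMM scaling, DESeq2, a Mann-Whitney test, other filters (20 reads, or none), leaving out each mouse and no block. Fits were tested on simulated data.

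The RNAs and lists were chosen with earlier results of these data known. Genes named from the lists are the up to 4 with the largest Illumina change among those called on both platforms in the same direction with GSNAP. Nono is named beside them as a paraspeckle core protein that was not called. Positions are from NCBIM37 gene models and sequences from that genome or RefSeq (GRCm38.p6). Promoters were matched by symbol, with an entry for 6 of the 7 RNAs. Neat1 is named only.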

Additional observations from a re-analysis of the deposited data

Results flagged for a closer look

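Among 28 groups of 5 mice examined (7 RNAs, 2 treatments and the GSNAP tables of 2 platforms), 1 had a mouse that stood apart from the rest. It was Gas5 in the untreated mice on Illumina, where UNT_9584 measured 101 CPM and the others 76.7 to 82.6. Its gap to the next mouse was 0.756 of the group's range, above the limit of 0.71 for 5 samples. Chance alone marks about 1 in 20 groups. On Ion Torrent the same mouse was again the highest, at 66.4 against 54.6 to 63.5, and was not marked.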

How the results depend on the processing

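Gas5, Snhg1 and Snhg3 were called higher under each of 16 alternatives in each of the 6 tables. Alternative values for single RNAs numbered 780, with fold changes and platform-by-treatment terms counted together. Of these, 717 kept direction and side of the threshold, 21 gained a call, 36 lost one and 6 changed sign. No platform-by-treatment term gained a call, and the sign changes include the terms of Gas5 and Snhg12. With a Mann-Whitney test on the deposited counts, which changes the test and drops the TMM scaling together, 3 RNAs passed on Illumina with STAR and 3 with STAR + Bowtie2, in place of 5, since Neat1 and Snhg12 were lost. This alternative also lost Neat1 on Illumina with GSNAP (adjusted p = 0.791) and Snhg12 on Ion Torrent with GSNAP (0.0710). Neat1 on Illumina with GSNAP was also not called without TMM scaling (log2 1.09, adjusted p = 0.0754), with DESeq2 (1.21, 0.0741) or with a filter of 20 reads (adjusted p = 0.0508). Malat1 on Ion Torrent with GSNAP was called lower without TMM scaling (-0.60, adjusted p = 0.0212) and without a filter (-0.50, 0.0324), and the latter also called Neat1 higher there (1.06, 0.0497). Malat1 gained both calls with STAR (adjusted p = 0.0160 and 0.0450, edgeR) and with STAR + Bowtie2 (0.0255 and 0.0392) too. With these 2 aligners it was also called lower without UNT_9575 or without ILB_9579, as with GSNAP. Leaving out each mouse, the log2 difference of Malat1 on Illumina reached from -0.36 up to 0.049 (GSNAP), from -0.36 up to 0.051 (STAR) and from -0.37 up to 0.036 (STAR + Bowtie2), above 0 without UNT_9580 alone, and that of Meg3 on Ion Torrent with STAR + Bowtie2 reached from -0.52 up to 0.039, above 0 without ILB_9578. The platform-by-treatment term with GSNAP was then -0.0015 to 0.082 for Gas5 and -0.15 to 0.0026 for Snhg12. Without the replicate block, as with it, 0 of the RNAs passed for this term. Median log2 changes over genes averaging 10 or more reads were -0.129 to -0.0889 without TMM scaling and -0.0129 to 0.00954 with it, and no RNA changed sign. Alternatives for list genes were added after the data were seen. Read numbers were lowest for Meg3, with 7 to 47 per library with GSNAP, and for Snhg3 on Ion Torrent, with 17 to 67. Causes were not tested.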
